A study of Mus musculus with 18 samples.

Results

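The stress keratins Krt6a, Krt6b, Krt16 and Krt17 are 4 keratins that stratified epithelia make more of when they are injured or proliferate. Krt16 and Krt17, 2 of the 4, each had 1 entry among the 57234 genes and transcribed regions of the expression table, of which 28934 carry a reference gene, and both passed the filter on low values. Krt6a and Krt6b were not analysed here. The set was selected on these same libraries, with the FPKM of Krt17 already known to be higher under the carcinogen, and its members were found by symbol, so their levels under the carcinogen are given as a description with no p value.

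Keratins build the intermediate filaments of epithelial cells, and a filament needs a type I chain paired with a type II chain. Krt16 and Krt17 are type I keratins and Krt6a and Krt6b are the type II keratins they usually pair with. In skin these keratins are scarce in the resting interfollicular epidermis and appear in keratinocytes at wound edges, in psoriasis and in squamous carcinomas, and Krt17 is also made in the hair follicle. The rodent forestomach is lined by a keratinized stratified squamous epithelium, in which basal cells make Krt5 and Krt14 and cells above them switch to other pairs.

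The libraries came from the forestomachs of male C57BL/6 mice in 4 groups, with 6 libraries from CCR2-/- mice and 6 from wild-type mice given N-nitrosomethylbenzylamine (NMBA) and 3 from CCR2-/- and 3 from wild-type control mice. Whether each library came from a separate mouse is not stated in the labels. NMBA, a nitrosamine that causes squamous tumours of the esophagus and forestomach in rodents, was given by gavage at 0.25 mg/kg on 2 days a week for 5 weeks, controls received 1% carboxymethyl cellulose, and the forestomachs were collected when week 25 ended. CCR2-/- mice lack the chemokine receptor CCR2 in every cell (allele Ccr2 tm1Ifc), mice were used at 4 to 8 weeks of age, and whether wild-type mice were littermates is not given in the sources used here. The labels call the material esophageal cancer in all 18 libraries, controls included, and how much tumour an NMBA sample held is not known here. NMBA replicates 1 to 3 and 4 to 6 carry different code letters in their names within each genotype, with no meaning given for the letters, so levels are also shown by that split.

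The targeted gene followed the labels. Ccr2 was between 0 and 0.0798 FPKM in the 6 CCR2-/- NMBA libraries and between 1.30 and 3.43 FPKM in the 6 wild-type NMBA libraries, and between 0 and 0.0546 FPKM in CCR2-/- controls against 1.83 to 2.37 FPKM in wild-type controls. FPKM, the unit throughout, is fragments per kilobase of gene model per 1000000 mapped fragments, so levels can be set side by side between genes. Depth, recovered from the steps between low values, was 36640000 to 50640000 reads per library, and Krt17 rested on about 1771 to 21514 reads. In bulk tissue, fewer cells of a type and less RNA per cell cannot be told apart.

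Krt16 and Krt17 lie next to each other in the type I keratin cluster of chromosome 11. In GRCm38 Krt16 spans chr11:100246091-100248902 and Krt17 spans chr11:100256217-100261029, both on the minus strand, with 7314 bases between them, and each has 1 annotated transcript of 8 exons with no overlapping gene in GENCODE M21. Since the members are close relatives, their transcripts were compared. The stretches below hold the longest run the 2 transcripts share, 55 bases in capitals within the coding sequence, with 30 bases on each side, and are shown because reads that fall wholly inside such a run cannot be assigned to either gene.
Krt16, transcript bases 1181 to 1295: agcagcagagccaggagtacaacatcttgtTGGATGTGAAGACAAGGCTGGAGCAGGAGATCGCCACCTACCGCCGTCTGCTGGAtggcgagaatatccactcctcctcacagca
Krt17, transcript bases 1146 to 1260: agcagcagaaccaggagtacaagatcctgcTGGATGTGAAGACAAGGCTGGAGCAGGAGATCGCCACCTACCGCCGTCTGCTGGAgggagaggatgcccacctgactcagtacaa

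The windows of 115 bases differ at 20 positions. Of the 100-base stretches of the Krt17 transcript, 0 of 1452 occur in a transcript of another gene, on either strand. Of those of Krt16, 356 of 1466 (24.3%) do, 310 of them in Gm11597, an unprocessed pseudogene, and 46 in Krt14. At 50 bases, 60 of 1502 stretches of Krt17 (3.99%) occur in a transcript of another gene, 55 of them in Krt14. For Krt16 the count at 50 bases is 570 of 1516 (37.6%). Gm11597 and Krt14 were not analysed here, and how the authors treated reads that fit several genes is not given in the sources used here, so the level of Krt16 is the less certain of the pair.

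Under NMBA, Krt17 was 5.02-fold its control level in CCR2-/- mice and 5.06-fold in wild-type mice, and Krt16 was 2.03-fold in each genotype. These are ratios of geometric means of FPKM + 1. In CCR2-/- mice Krt17 had a lowest value of 156.9, a median of 223.7 and a highest value of 279.7 FPKM under NMBA, against 32.0, 53.2 and 42.7 FPKM in the 3 controls. In wild-type mice the lowest, median and highest values under NMBA were 97.2, 273.1 and 376.8 FPKM, against 30.9, 55.0 and 45.2 FPKM in the controls. Every NMBA library was above every control library of either genotype, and the spread was widest in wild-type mice under NMBA. How many of all genes tested separate in this way was not counted, so nothing is read from such separations here or below.

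**Figure D1:**
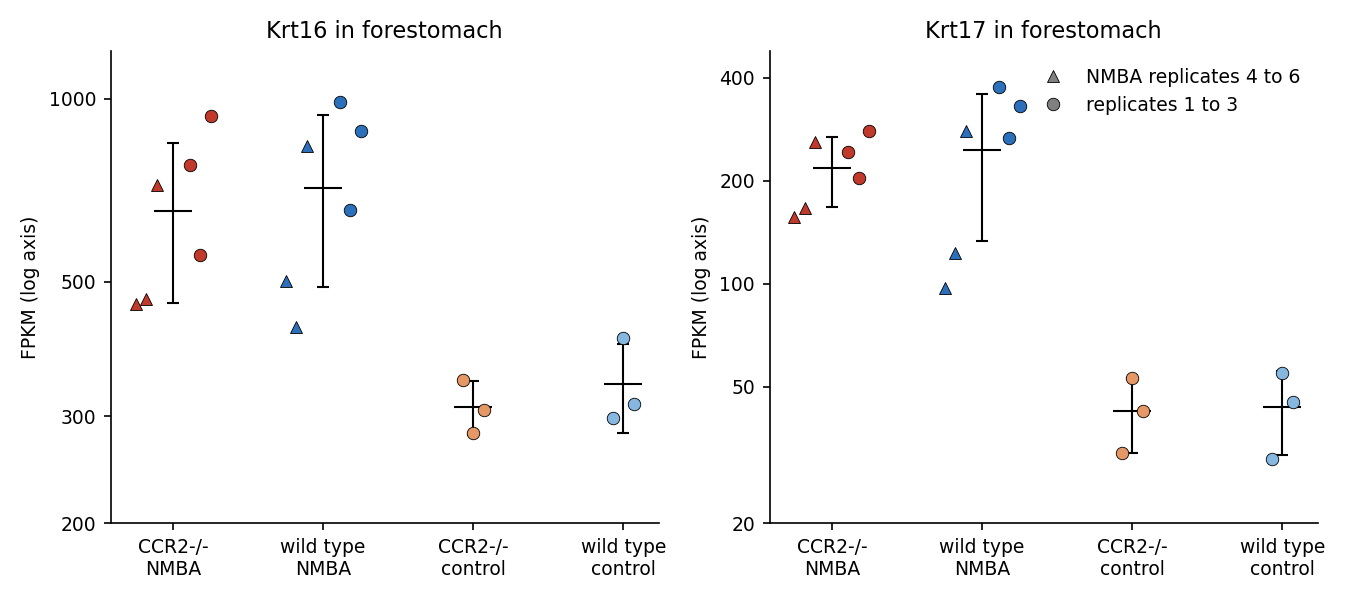
FPKM (log axis) of Krt16 and Krt17 in each library, with triangles for NMBA replicates 4 to 6, circles for replicates 1 to 3, and bars for the mean and SD of a group. All NMBA libraries lie above all controls for both genes, from 97.2 FPKM for Krt17 and from 421.0 FPKM for Krt16.

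Krt16 started from a higher level. Its lowest, median and highest values were 459.1, 636.8 and 938.5 FPKM in CCR2-/- mice under NMBA, against 344.2, 281.9 and 306.7 FPKM in the 3 CCR2-/- controls. They were 421.0, 745.6 and 986.9 FPKM in wild-type mice under NMBA, against 298.5, 403.0 and 313.9 FPKM in wild-type controls. The groups did not overlap here either, but the lowest wild-type NMBA library was close to the highest wild-type control.

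As log2 fold changes of FPKM + 1, NMBA over control, Krt17 stood at 2.33 (SE 0.363) in CCR2-/- mice and 2.34 (SE 0.363) in wild-type mice, and Krt16 at 1.02 (SE 0.265) in each. In limma with a trend over 14765 genes and Benjamini-Hochberg adjustment, 1 of the 2 members, Krt17, passed the 0.05 threshold in each genotype, where 0.0203% of genes were called in CCR2-/- mice and 0.088% in wild-type mice. Since the set was taken with this contrast known, nothing is read from that count. The same holds for every call of a member in this contrast given below. By size of change, Krt17 was number 11 from the top of 14765 genes in CCR2-/- mice and number 14 in wild-type mice, while Krt16 was number 68 in CCR2-/- mice and number 101 in wild-type mice. All 3 genes called in CCR2-/- mice and all 13 called in wild-type mice were higher under NMBA. The call of Krt17 held in 8 of 18 fits that left out 1 library and 8 of 12 other alternatives in CCR2-/- mice, and in 13 of 18 and 7 of 12 in wild-type mice. In CCR2-/- mice it was lost on dropping any of the 3 CCR2-/- controls, any of replicates 1, 2, 3 and 6 of CCR2-/- NMBA, replicate 2 of wild-type NMBA, or replicate 1 or 3 of the wild-type controls. In wild-type mice it was lost on dropping any of the 3 wild-type controls or replicate 2 or 6 of wild-type NMBA. The 18 include the libraries of the other genotype, which enter the estimate of the spread but leave the fold change as it was. Among libraries of the genotype compared, the call held only on dropping replicate 4 or 5 of CCR2-/- NMBA. In wild-type mice it held only on dropping replicate 1, 3, 4 or 5 of wild-type NMBA. With single libraries left out, 0 to 6 genes were called in CCR2-/- mice and 1 to 30 in wild-type mice. Krt16 was called with a replicate block and with NMBA replicates 1 to 3 alone in both genotypes, and with array weights in CCR2-/- mice. The block and the fit of replicates 1 to 3 rest largely on the same libraries, since controls hold only replicates 1 to 3.

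The place of the pair among the keratins differed between NMBA and control tissue. Of 41 keratin entries, 22 reached 0.5 FPKM in at least 1 library. Krt17 was number 9 by mean FPKM in both NMBA groups and number 12 in both control groups, while Krt16 was number 5 in all 4 groups, after Krt1, Krt10, Krt13 and Krt4. These 4 are keratins of the differentiating layers, Krt1 and Krt10 of keratinized epithelia and Krt4 and Krt13 of internal stratified epithelia.

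As a share of the summed FPKM of the 41 entries, Krt17 took 0.739% ± 0.118 in CCR2-/- mice under NMBA and 0.175% ± 0.0504 in CCR2-/- controls, and 0.861% ± 0.383 in wild-type mice under NMBA and 0.165% ± 0.0541 in wild-type controls (SD, n = 6 and 3). For Krt16 the shares were 2.20% ± 0.463 under NMBA and 1.26% ± 0.0999 in controls of CCR2-/- mice, and 2.52% ± 0.787 and 1.27% ± 0.267 in wild-type mice. Krt16 and Krt17 thus each remained a small part of the summed FPKM of these entries in every library, with the highest share of Krt16 at 3.37%. Krt6a, Krt6b and Krt14 are not in these sums, so the share of all stress keratins together is not known here.

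The keratin nearest to the pair was Krt5, the type II keratin of basal cells. Krt5 averaged 531.3 ± 148.4 FPKM in CCR2-/- mice under NMBA and 225.1 ± 12.2 FPKM in their controls, and 490.9 ± 166.8 FPKM in wild-type mice under NMBA and 235.2 ± 6.38 FPKM in their controls (SD, n = 6 and 3). Its groups did not overlap, but over all genes limma gave adjusted p = 0.149 in CCR2-/- mice (log2 fold change 1.19, SE 0.248) and adjusted p = 0.157 in wild-type mice (0.99, SE 0.248). Krt15, the other basal type I keratin with an entry, had negative log2 fold changes of -0.36 (SE 0.24) in CCR2-/- mice and -0.44 (SE 0.24) in wild-type mice.

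**Figure D2:**
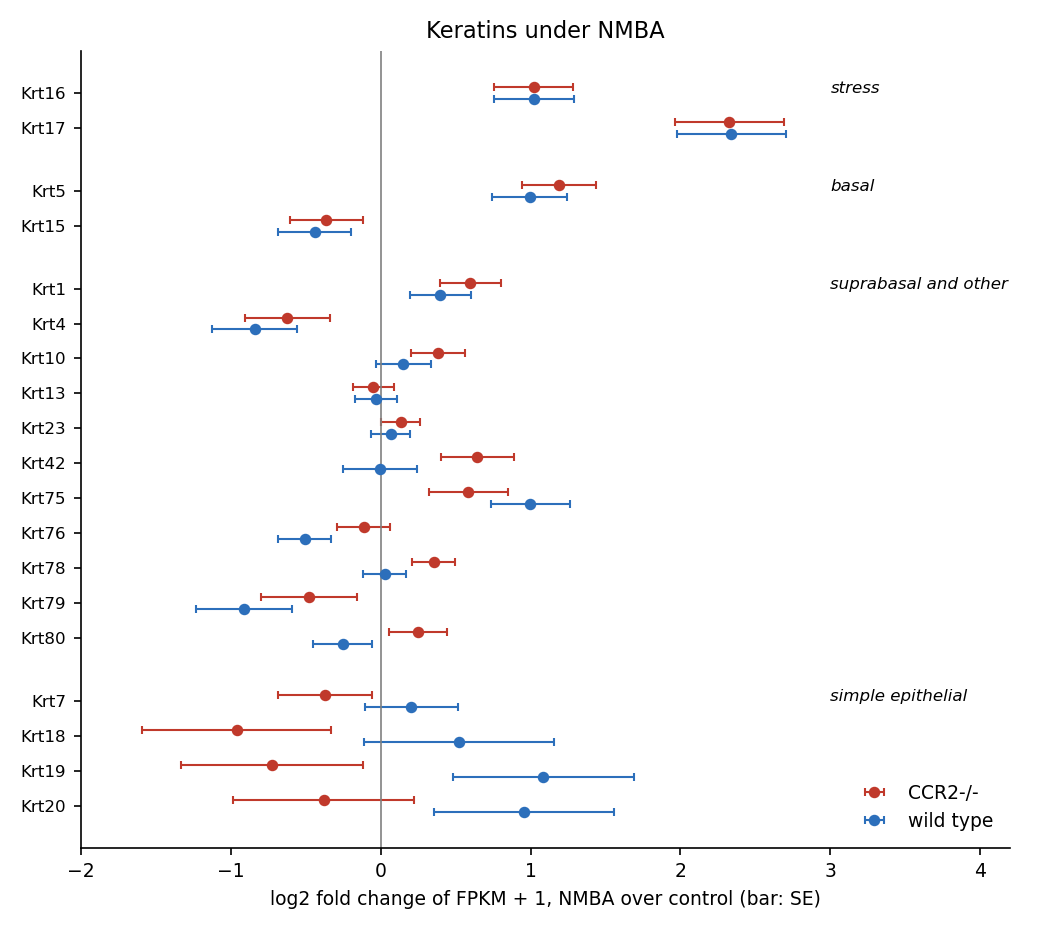
log2 fold change of FPKM + 1, NMBA over control, of each tested keratin of the stress, basal, suprabasal and other, and simple epithelial lists, with bars for the SE, in CCR2-/- mice and in wild-type mice. Krt17 lies farthest to the right at 2.33 and 2.34, Krt16 sits beside Krt5 near 1, and Krt4 lies left of 0 in both genotypes.

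The 17 tested keratins of the basal, suprabasal and simple epithelial lists held no gene past the threshold in either genotype with limma. Keratins outside these lists, such as Krt82, are not counted here. Over all 14765 genes, 5.2% were higher and 6.18% lower in CCR2-/- mice at an unadjusted p under 0.05, and 5.45% higher and 7.69% lower in wild-type mice. At that level, the 2 basal keratins gave 1 higher and 0 lower in each genotype. The 11 suprabasal and other epithelial keratins gave 5 higher and 1 lower in CCR2-/- mice and 1 higher and 3 lower in wild-type mice, with a median log2 fold change of 0.25 in CCR2-/- mice (-0.0047 over all genes) and -0.0044 in wild-type mice (-0.0088 over all genes). The 4 simple epithelial keratins, which the glandular stomach makes, gave 0 at that level in either genotype, with medians of -0.55 in CCR2-/- mice and 0.74 in wild-type mice. Krt4 averaged 2990 ± 1148 FPKM in CCR2-/- mice under NMBA and 4311 ± 242 FPKM in their controls, a log2 fold change of -0.62 (SE 0.28, adjusted p = 0.42). In wild-type mice it averaged 3052 ± 796 FPKM under NMBA and 5310 ± 49.9 FPKM in controls, a log2 fold change of -0.84 (SE 0.28, adjusted p = 0.24). Krt13 stood at -0.05 (SE 0.14) in CCR2-/- mice and -0.03 (SE 0.14) in wild-type mice, and Krt1 and Krt10 stood at 0.60 (SE 0.20) and 0.38 (SE 0.18) in CCR2-/- mice and 0.40 (SE 0.20) and 0.15 (SE 0.18) in wild-type mice.

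Because the log2 fold changes of Krt16 and Krt5 were of similar size, the ratio of each member to Krt5 was taken within each library. Krt17 over Krt5 had a lowest value of 0.378, a median of 0.413 and a highest value of 0.443 in CCR2-/- mice under NMBA, against 0.150, 0.179 and 0.238 in their controls. In wild-type mice the values were 0.298, 0.520 and 0.602 under NMBA, against 0.135, 0.188 and 0.232 in controls. The ratio of Krt17 to Krt5 was above all controls of the same genotype in 12 of 12 NMBA libraries. Krt17 was known to be higher under NMBA and Krt5 was chosen after seeing the data, so this is only a description. Taking log2(FPKM + 1) of Krt5 from each library left a log2 fold change of 1.14 for Krt17 in CCR2-/- mice and 1.35 in wild-type mice.

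Krt16 over Krt5 did not separate the groups. It was 1.23 ± 0.0608 in CCR2-/- mice under NMBA and 1.39 ± 0.195 in their controls, and 1.47 ± 0.219 in wild-type mice under NMBA and 1.44 ± 0.225 in controls (SD, n = 6 and 3). Relative to Krt5, the log2 fold change of Krt16 was -0.169 in CCR2-/- mice and 0.028 in wild-type mice. Krt17 over Krt16 was 0.340 ± 0.0288 in CCR2-/- mice under NMBA and 0.140 ± 0.0479 in their controls, and 0.331 ± 0.0785 in wild-type mice under NMBA and 0.128 ± 0.0216 in controls.

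**Figure D3:**
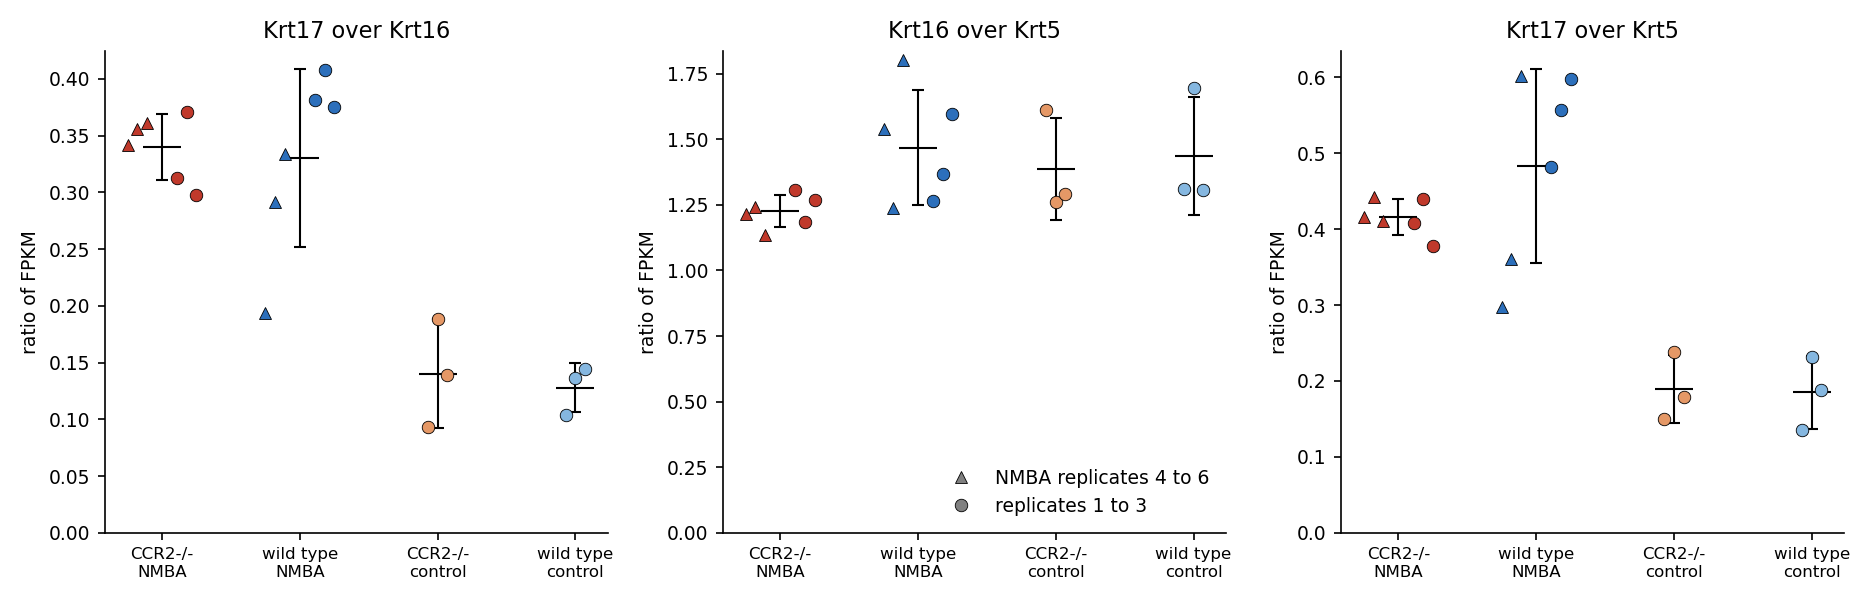
Ratios of FPKM within each library for Krt17 over Krt16, Krt16 over Krt5 and Krt17 over Krt5, with symbols as in the plot of levels and bars for the mean and SD. Both ratios with Krt17 on top are higher in NMBA libraries than in controls, and Krt16 over Krt5 overlaps across the groups, between 1.14 and 1.80 in NMBA libraries.

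The first question that the rule did not settle is whether loss of CCR2 changed the stress keratins. Neither member differed detectably between genotypes. Under NMBA, CCR2-/- over wild type, the log2 difference was -0.12 for Krt16 (95% confidence interval -0.57 to 0.34, limma adjusted p = 0.887) and -0.039 for Krt17 (-0.66 to 0.58, adjusted p = 0.976). In that comparison 0 of the 2 members passed, where 0.0474% of genes were called (7 of 14765). The intervals leave room for differences of that size in either direction, so equal levels are not shown.

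In controls the log2 differences were -0.11 for Krt16 (-0.76 to 0.53) and -0.026 for Krt17 (-0.91 to 0.86), with adjusted p = 1 for each, where 0.00677% of genes were called (1 of 14765). The difference between the NMBA responses of the genotypes was -0.0019 for Krt16 (-0.79 to 0.79, adjusted p = 0.999) and -0.013 for Krt17 (-1.09 to 1.07, adjusted p = 0.997). For that contrast limma called 0 genes (0%), with 673 genes at an unadjusted p under 0.05. With 3 controls a genotype, these intervals are the widest of the genotype contrasts.

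**Figure D4:**
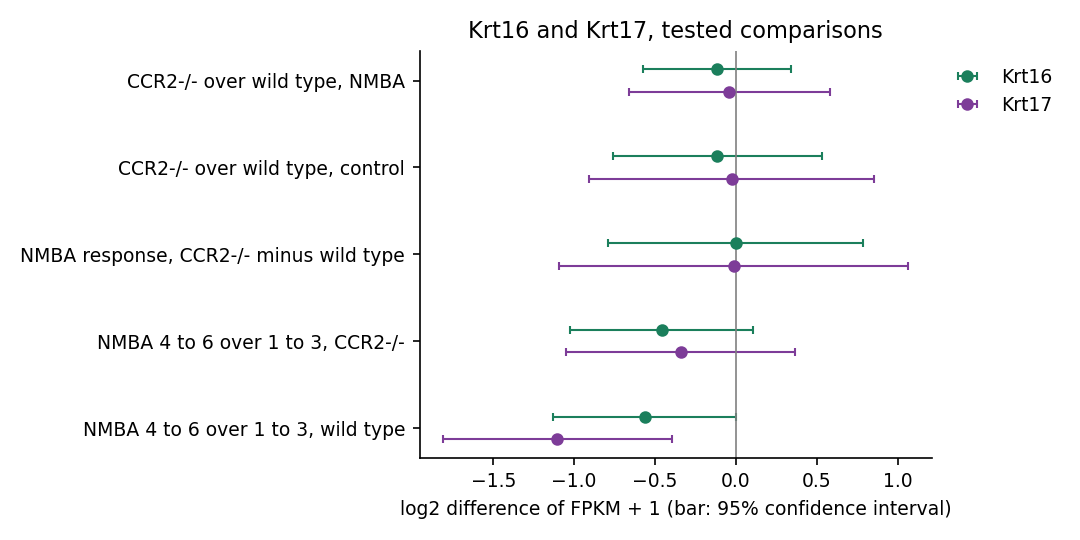
log2 differences of FPKM + 1 of Krt16 and Krt17 with 95% confidence intervals in the comparisons that were tested. The genotype intervals all span 0, and the Krt17 interval for wild-type NMBA replicates 4 to 6 over 1 to 3 lies below 0, from -1.81 to -0.39, before adjustment over all genes.

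Of the ratios, 6 genotype comparisons were made by two-sided exact permutation tests on log2 ratios. Krt16 over Krt5 was lower in CCR2-/- mice than in wild-type mice under NMBA, with a log2 difference of -0.247 (exact permutation p = 0.0216, adjusted p = 0.130, n = 6 and 6), which did not hold after adjustment over the 6. Its values ran from 1.14 to 1.31 in CCR2-/- mice under NMBA and from 1.24 to 1.80 in wild-type mice under NMBA, so the groups overlapped. Krt17 over Krt5 (difference -0.170, exact permutation p = 0.359) and Krt17 over Krt16 (0.0774, exact permutation p = 0.760) gave adjusted p = 0.9 each. In controls, where 3 against 3 cannot go below 0.10, the exact permutation p was 0.5 to 0.9.

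Within the NMBA groups both members varied by replicate number. Krt17 in wild-type NMBA replicates 4, 5 and 6 was 97.2, 122.8 and 278.9 FPKM, against 376.8, 267.2 and 331.7 FPKM in replicates 1, 2 and 3. Of replicates 4 to 6, 2 were below all of replicates 1 to 3 and 1 fell among them. In CCR2-/- mice Krt17 was 156.9, 166.5 and 260.6 FPKM in replicates 4 to 6, against 243.0, 204.5 and 279.7 FPKM in replicates 1 to 3. Here too 2 of 3 were below all of the others.

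Krt16 followed the same libraries. In wild-type mice it was 502.0, 421.0 and 835.9 FPKM in replicates 4 to 6, against 986.9, 655.3 and 884.8 FPKM in replicates 1 to 3. In CCR2-/- mice it was 459.1, 467.3 and 721.5 FPKM in replicates 4 to 6, against 777.2, 552.0 and 938.5 FPKM in replicates 1 to 3. In each genotype replicate 6 was the highest of replicates 4 to 6 for both genes.

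In limma with the 6 subgroups, the log2 difference of replicates 4 to 6 over 1 to 3 in wild-type mice was -1.10 for Krt17 (-1.81 to -0.39, unadjusted p = 0.0046, adjusted p = 0.473) and -0.56 for Krt16 (-1.13 to 0.0029, adjusted p = 0.570). In CCR2-/- mice it was -0.34 for Krt17 (-1.05 to 0.37, adjusted p = 0.710) and -0.46 for Krt16 (-1.03 to 0.11, adjusted p = 0.536). No gene was called in either genotype (0% of 14765), with 1286 genes in wild-type mice and 1554 in CCR2-/- mice at an unadjusted p under 0.05. Giving the libraries array weights brought both wild-type differences past the threshold, at -1.67 for Krt17 (adjusted p = 0.0017) and -0.79 for Krt16 (adjusted p = 0.0128), with 2527 genes called in place of 0. Whether the split differs between genotypes was not tested.

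The levels of Krt17 lay above the controls in each part of the split, but its call did not hold in each. With NMBA replicates 4 to 6 alone the log2 fold change over control was 2.16 in CCR2-/- mice and 1.79 in wild-type mice and was not called in either, and with replicates 1 to 3 alone it was 2.50 in CCR2-/- mice and 2.89 in wild-type mice and was called in both. In replicates 4 to 6 its lowest level under NMBA was 156.9 FPKM in CCR2-/- mice and 97.2 FPKM in wild-type mice, against control maxima of 53.2 FPKM and 55.0 FPKM. Krt17 was known to be higher in this contrast when the set was taken, so nothing is read from its calls.

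Krt16 and Krt17 were high and low in the same NMBA libraries. Over the 12 NMBA libraries Pearson's r of log2(FPKM + 1) was 0.891 and Spearman's rho was 0.923, and r was 0.852 without the 2 libraries farthest from the median of Krt16. Over the same 12, r was 0.895 for Krt16 with Krt5 and 0.873 for Krt17 with Krt5. These are descriptions over libraries that share their tissue make-up and the split by replicate number, and the 6 controls alone gave r = 0.201 for the pair.

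**Figure D5:**
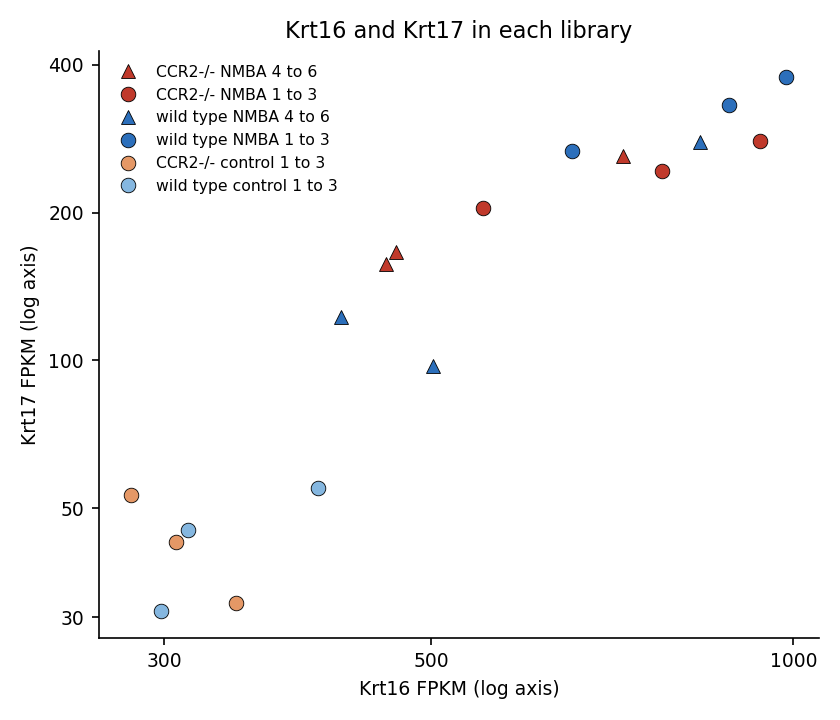
Krt17 against Krt16 in each of the 18 libraries (FPKM, log axes), coloured by group, with triangles for NMBA replicates 4 to 6. NMBA libraries run along a rising line with r = 0.891, while the 6 controls form a separate cloud at 30.9 to 55.0 FPKM of Krt17.

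The genes most like the members over the 18 libraries were sought by the highest Pearson's r among 12279 genes with ordinary symbols. For Krt17 they were Sprr2g (r = 0.976), Sprr2f (0.968), Krt5 (0.950), Defb3 (0.946) and Defb14 (0.945). For Krt16 they were Zdhhc18 (0.961), Sprr2g (0.957), Krt5 (0.953), Defb14 (0.944) and Urah (0.942). Sprr2f and Sprr2g encode small proline-rich proteins of the cornified envelope, Defb3 and Defb14 encode epithelial beta-defensins, Zdhhc18 encodes a palmitoyltransferase and Urah encodes an enzyme of urate breakdown. All of them shared the step between control and NMBA tissue, and with the group means taken out r was 0.769 to 0.923.

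These genes were picked by likeness to the members over all 18 libraries, which include the step from control to NMBA. Their p values for that step are therefore a description and no independent support. Sprr2f, Sprr2g and Defb3 averaged under 5 FPKM in controls. Sprr2f averaged 72.0 ± 41.5 FPKM in CCR2-/- mice under NMBA and 4.31 ± 2.28 FPKM in their controls, and 97.2 ± 77.2 FPKM in wild-type mice under NMBA and 2.14 ± 1.15 FPKM in their controls (SD, n = 6 and 3). Its log2 fold change was 3.67 (SE 0.681, adjusted p = 0.112) in CCR2-/- mice and 4.54 (SE 0.681, adjusted p = 0.0132) in wild-type mice. Sprr2g rose in wild-type mice by a log2 fold change of 3.77 (adjusted p = 0.0432) and stood at 3.13 in CCR2-/- mice (adjusted p = 0.149). Defb3 stood at 4.71 in wild-type mice (limma adjusted p = 0.0468) and 4.13 in CCR2-/- mice (adjusted p = 0.149). Defb14, Urah and Zdhhc18 were between 0.62 and 1.91 in the 2 genotypes and did not pass the test. These wild-type calls were not held by every alternative. Of 18 fits that left out 1 library, Sprr2f was called in 15, Sprr2g in 8 and Defb3 in 5, and none of the 3 was called when any 1 of the 3 wild-type controls was left out. The 18 include the CCR2-/- libraries, which leave the wild-type fold change as it was. Sprr2g and Defb3 also lost their calls on dropping any of replicates 1, 2, 3 and 6 of wild-type NMBA, replicate 2 or 3 of the CCR2-/- controls, or replicate 6 of CCR2-/- NMBA, and Defb3 on dropping replicate 1 of the CCR2-/- controls or replicate 2 or 5 of CCR2-/- NMBA.

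Keratin filaments are anchored at desmosomes and hemidesmosomes by linker proteins. Of 7 measured filament partners, 0 passed in either genotype with limma. At an unadjusted p under 0.05, 3 were higher in CCR2-/- mice (5.2% of all genes) and 1 was lower in wild-type mice (7.69% of all genes). Dsp, the desmosomal linker desmoplakin, averaged 311.8 ± 74.7 FPKM in CCR2-/- mice under NMBA and 191.5 ± 28.0 FPKM in their controls (log2 fold change 0.68, adjusted p = 0.40), and 249.9 ± 84.1 FPKM in wild-type mice under NMBA and 196.8 ± 67.9 FPKM in their controls (0.33, adjusted p = 0.68). Ppl, the cornified envelope linker periplakin, stood at 0.30 (adjusted p = 0.58) in CCR2-/- mice and -0.29 (adjusted p = 0.60) in wild-type mice.

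In skin, ligands of the EGF receptor, inflammatory cytokines, AP-1 and NRF2 are known to drive these keratins. All 7 genes of the EGF receptor list had positive log2 fold changes in both genotypes, with medians of 0.29 in CCR2-/- mice and 0.55 in wild-type mice, but 0 passed the test with limma, and 2 of them in CCR2-/- mice (5.2% of all genes higher) and 3 in wild-type mice (5.45%) had an unadjusted p under 0.05. Ereg, which encodes epiregulin, stood at 0.63 (adjusted p = 0.44) in CCR2-/- mice and 0.55 (adjusted p = 0.46) in wild-type mice. Tgfa, which encodes another ligand, stood at 0.29 (adjusted p = 0.59) in CCR2-/- mice and 0.02 (adjusted p = 0.99) in wild-type mice.

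Of 11 cytokine and receptor genes with an entry, 7 passed the filter on low values and Il22, Il20, Il24 and Ifng stayed under 0.5 FPKM in every library. None of the 7 passed the test with limma, and 2 in CCR2-/- mice (5.2% of all genes) and 5 in wild-type mice (5.45%) were higher at an unadjusted p under 0.05. Il1b averaged 3.84 ± 4.31 FPKM in CCR2-/- mice under NMBA and 0.521 ± 0.268 FPKM in their controls, and 2.89 ± 3.34 FPKM in wild-type mice under NMBA and 0.350 ± 0.216 FPKM in their controls, with adjusted p = 0.41 in CCR2-/- mice and 0.37 in wild-type mice. Il1a, the interleukin that keratinocytes store, stood at 0.39 (adjusted p = 0.58) in CCR2-/- mice and 0.66 (adjusted p = 0.33) in wild-type mice.

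Of 12 transcription factors tested 0 passed with limma, and at an unadjusted p under 0.05 there were 3 higher in CCR2-/- mice (5.2% of all genes) and 2 higher (5.45%) and 1 lower (7.69%) in wild-type mice. Nfe2l2, which encodes NRF2, had a log2 fold change of 0.26 (SE 0.11, adjusted p = 0.40) in CCR2-/- mice and 0.21 (SE 0.11, adjusted p = 0.46) in wild-type mice, and Trp63, the master regulator of stratified epithelium, had 0.36 (SE 0.19) in CCR2-/- mice and 0.09 (SE 0.19) in wild-type mice. Of 7 NRF2 targets 0 passed, with 1 higher in CCR2-/- mice (5.2% of all genes) and 3 higher in wild-type mice (5.45%) at an unadjusted p under 0.05. Hmox1 and Nqo1 lay between 0.03 and 0.28 in both genotypes.

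Markers of the cells in the tissue moved with the comparison as follows, and their part in the levels of the stress keratins was not tested. All 8 smooth muscle markers had negative log2 fold changes in both genotypes with 0 called by limma (1 in CCR2-/- mice, beside 6.18% of all genes lower, and 8 in wild-type mice, beside 7.69%, at an unadjusted p under 0.05), and their summed level ran from 1862 to 7254 FPKM in CCR2-/- mice under NMBA, against 5825 to 10117 FPKM in their controls, and from 3053 to 6433 FPKM in wild-type mice under NMBA, against 6912 to 9987 FPKM in their controls. Of 9 squamous markers 6 were positive and 3 negative in each genotype with 0 called. Their sum was 7588 to 11785 FPKM in CCR2-/- mice under NMBA, against 10046 to 11078 FPKM in their controls, which overlapped. In wild-type mice it was 8727 to 10664 FPKM under NMBA, against 11472 to 12124 FPKM in controls, which did not. Krt13 and Krt4, the most abundant of the 9, weigh most in this sum. In wild-type mice Krt4 averaged 3052 FPKM under NMBA and 5310 FPKM in controls, and Krt13 averaged 5818 and 5933 FPKM. The median log2 fold change of the 9 was 0.58 in CCR2-/- mice and 0.36 in wild-type mice. The mean log2(FPKM + 1) of these markers, Krt5 among them, was also used as a covariate. The log2 fold changes in CCR2-/- mice were then 1.55 for Krt17 and 0.47 for Krt16. In wild-type mice they were 2.01 for Krt17 and 0.79 for Krt16. Krt17 was not called in either genotype with that covariate.

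Glandular stomach RNA was present in every library. The 9 glandular markers summed to 5577 to 63881 FPKM in CCR2-/- mice under NMBA, against 25927 to 42390 FPKM in their controls. In wild-type mice they summed to 8513 to 46351 FPKM under NMBA, against 4437 to 49787 FPKM in controls. No marker was at 0 in all 18 libraries at once. Without the 2 libraries richest in Pgc, the pepsinogen C gene, the log2 fold change of Krt17 was 2.41 in CCR2-/- mice, where it was still called, and 2.38 in wild-type mice, where it was not, and that of Krt16 was 1.11 in CCR2-/- mice and 0.97 in wild-type mice. Of the leukocyte markers, 7 were tested and 1, S100a8, a neutrophil gene that stressed keratinocytes also make, rose in wild-type mice (log2 fold change 6.45, SE 0.85, adjusted p = 0.0052) and stood at 4.89 in CCR2-/- mice (adjusted p = 0.08). The wild-type call of S100a8 was lost on dropping replicate 1 or 3 of the wild-type controls, or the 2 libraries richest in Pgc (log2 fold change 6.26). The leukocyte markers summed to 151.3 to 628.8 FPKM in CCR2-/- mice under NMBA, against 121.5 to 137.5 FPKM in controls. In wild-type mice they summed to 185.7 to 944.0 FPKM under NMBA, against 126.9 to 169.4 FPKM in controls. S100a8 made up much of the highest sums. It was 44.1 to 559.6 FPKM in CCR2-/- mice under NMBA and 1.87 to 5.22 FPKM in their controls. In wild-type mice it was 44.4 to 787.2 FPKM under NMBA and 0.607 to 1.47 FPKM in controls. Lyz2, another of these markers, averaged 96.6 FPKM under NMBA and 105.5 FPKM in controls in CCR2-/- mice, and 172.5 and 128.1 FPKM in wild-type mice. Of 6 adipocyte markers 0 passed, with medians of -0.99 in CCR2-/- mice and 0.43 in wild-type mice, and their sums overlapped between NMBA and control tissue.

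The hair follicle is another place where Krt17 is made. Of 8 genes of the follicle list with an entry, 7 stayed under 0.5 FPKM in every library, among them the hair shaft and root sheath keratins Krt25, Krt27, Krt28, Krt31, Krt33a and Krt35. The list summed to at most 1.03 FPKM in any CCR2-/- NMBA library and 1.01 FPKM in any wild-type NMBA library, against 0.285 and 0.300 FPKM in any control of the same genotype. Outside that list, Krt75, Krt79 and Krt82, keratins of the follicle, were measured at higher levels, and all were picked after their values were seen. They did not move in 1 direction. Krt79 averaged 11.3 FPKM in wild-type mice under NMBA and 21.5 FPKM in their controls. In CCR2-/- mice its mean under NMBA was also lower, below the 15.1 FPKM of their controls. The means of Krt75 and Krt82 were higher under NMBA in both genotypes. Krt75, of the companion layer, averaged 14.5 FPKM in CCR2-/- mice under NMBA and 9.56 FPKM in their controls, and 14.2 FPKM in wild-type mice under NMBA and 6.18 FPKM in their controls, with log2 fold changes of 0.59 (SE 0.27, limma adjusted p = 0.42) in CCR2-/- mice and 1.00 (SE 0.27, adjusted p = 0.18) in wild-type mice. Krt82, a hair cuticle keratin, averaged 4.05 FPKM in CCR2-/- mice under NMBA and 2.65 FPKM in their controls, and 2.95 FPKM in wild-type mice under NMBA and 1.12 FPKM in their controls. The part of follicle cells in the levels of the stress keratins was not tested.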

How the data were processed

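The deposited values are FPKM per gene or transcribed region in 18 forestomach libraries, made by the authors from Illumina TruSeq libraries. DESeq2 is the tool in the submitters' processing notes, and GRCm38 (mm10) is the build. The aligner, the counter and the annotation are not given in the sources used here. All 18 columns were mapped to samples by name. Genes with a reference gene and at least 0.5 FPKM in 3 or more libraries (14765) were tested on log2(FPKM + 1) with limma 3.58.1 (trend, R 4.3.3), the 4 groups as 1 factor, or 6 subgroups for the split by replicate number. Tests were two-sided, with Benjamini-Hochberg adjustment over all genes and a threshold of 0.05. Fold changes understate the change of low genes. Ratios were compared by exact permutation tests (scipy 1.17.1). The fit was tested on simulated data.

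The members and all gene lists were chosen with earlier results of these data known. Genes named are the members, the 5 genes most like each by Pearson's r, the 5 other keratins with the highest mean, Ccr2, and of each other list up to 4 called genes in each NMBA comparison or else the 2 with the highest mean. Krt15, Krt75, Krt79, Krt82, the genes that share sequence with Krt16 and list genes under 0.5 FPKM were named after their values were seen. Depth was read from the steps between FPKM times GENCODE M21 exon length, where 88.2 to 89.9% of low values fell within 0.02 of whole reads, and Krt17 reads were computed with that length. The labels do not say that replicates are separate animals, so p values measure only the spread between these samples. The planned comparison with the mean of Krt5 and Krt14 used Krt5 alone, chosen after seeing the data. Alternatives were another pseudocount, filters, scalings, array weights, fits of fewer groups, a replicate block, a covariate and left-out libraries.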

Additional observations from a re-analysis of the deposited data

Results flagged for a closer look

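Among 33 genes and 66 groups of 6 libraries, 5 had 1 library set apart from the other 5 by a gap above Dixon's 95% critical value, and chance alone flags about 1 in 20 groups. None was Krt16 or Krt17. Urah stood at 32.1 FPKM in CCR2-/- NMBA replicate 3. Il1b stood at 9.49 FPKM in wild-type NMBA replicate 6. Pgc stood at 40444 FPKM in CCR2-/- NMBA replicate 4. Tff1, which encodes a gastric trefoil peptide, stood at 14643 FPKM in wild-type NMBA replicate 6, and Tagln, a smooth muscle gene, at 2104 FPKM in wild-type NMBA replicate 4. In those libraries Krt17 stood at 279.7 FPKM in CCR2-/- NMBA replicate 3, 156.9 FPKM in CCR2-/- NMBA replicate 4, 278.9 FPKM in wild-type NMBA replicate 6 and 97.2 FPKM in wild-type NMBA replicate 4.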

How the results depend on the processing

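The NMBA log2 fold changes of Krt16 and Krt17 stayed positive under every alternative run except Krt16 relative to Krt5 in CCR2-/- mice, at -0.169. The comparison with Krt5 was chosen after seeing the data, and relative to Krt5 the others were 0.0284 (Krt16, wild type), 1.35 (Krt17, wild type) and 1.14 (Krt17, CCR2-/-). With the squamous covariate, Krt16 was at 0.470 and Krt17 at 1.55 in CCR2-/- mice, and Krt16 at 0.785 and Krt17 at 2.01 in wild-type mice, with Krt17 called in neither. Leaving out single libraries gave 2.12 to 2.57 for Krt17 and 0.92 to 1.16 for Krt16 in wild-type mice, and 2.14 to 2.50 for Krt17 and 0.91 to 1.11 for Krt16 in CCR2-/- mice.

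The genotype contrasts lie near 0, and none came past the threshold in any setting, but the sign turned in some. Under NMBA, CCR2-/- over wild type, Krt17 was 0.0457 with each library scaled to a sum of 1000000, 0.0489 without the 2 libraries richest in Pgc and 0.341 with replicates 4 to 6 alone, against -0.420 with replicates 1 to 3 alone, and -0.273 to 0.116 without single libraries. In controls Krt17 was 0.141 with array weights, 0.179 with the covariate, 0.0171 without the Pgc-rich libraries, 0.0384 relative to Krt5 and -0.251 to 0.160 without single libraries, and Krt16 was 0.0323 with the covariate and -0.198 to 0.0176 without single libraries. The difference in NMBA response was 0.135 (Krt16) and 0.123 (Krt17) with scaling to 1000000, 0.137 and 0.0318 without the Pgc-rich libraries, 0.0508 and 0.367 with replicates 4 to 6 alone, and -0.141 to 0.104 and -0.247 to 0.211 without single libraries. The cause was not tested.

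For replicates 4 to 6 over 1 to 3 in wild-type mice, array weights gave -0.793 for Krt16 and -1.67 for Krt17, both past the threshold. Relative to Krt5, Krt16 turned to 0.105 there and Krt17 to 0.0528 in CCR2-/- mice. Single left-out libraries gave -1.55 to -0.80 for Krt17 in wild-type mice.

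Numbers of genes called moved by more than 1.5 times. NMBA over control called 3 genes in CCR2-/- mice and 13 in wild-type mice, but 224 (CCR2-/-) and 158 (wild type) with NMBA replicates 1 to 3 alone, 0 and 3 with replicates 4 to 6 alone, 138 and 31 with array weights, 4 and 26 with a pseudocount of 0.1, 4 and 5 with no filter, 1 and 9 with median ratio scaling, 1 and 9 with only the groups compared, 0 and 4 with the covariate, and 5 and 2 without the Pgc-rich libraries. Without single libraries they ran from 0 (without replicate 2 of the CCR2-/- controls, or any of replicates 1 to 3 of CCR2-/- NMBA) to 6 (without CCR2-/- NMBA replicate 5) in CCR2-/- mice, and from 1 (without wild-type control replicate 1 or 3) to 30 (without wild-type NMBA replicate 5) in wild-type mice. The genotype contrast called 7 genes under NMBA, 4 to 13 without single libraries and 1 to 9 otherwise, and 1 in controls, 1 to 6 and 1 to 4. The interaction called 0, with 1 without CCR2-/- control replicate 1. The split called 0 in each genotype, 0 to 4 without single libraries in CCR2-/- mice and 0 to 3 in wild-type mice, and up to 14 and 2527 otherwise. With a replicate block NMBA over control called 294 genes in CCR2-/- mice and 278 in wild-type mice, and the block gave 2.69 (CCR2-/-) and 2.70 (wild type) for Krt17 and 1.28 in each genotype for Krt16. Controls hold only replicates 1 to 3. Under the block, NMBA replicates 4 to 6 therefore add nothing to the NMBA fold change averaged over the genotypes. The block is thus no alternative apart from replicates 1 to 3 alone. With the group means taken out, same-numbered libraries gave r from -0.404 to 0.429, over 0.1 in 8 of 21 pairs and in 3 of the 6 NMBA pairs. Such a count cannot settle whether the numbers pair the samples. The split by replicate number could not be fitted with the block. At 36640000 reads or more per library, depth does not limit the members.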
